A study of Mus musculus with 6 samples.

Results

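The nascent polypeptide-associated complex (NAC) genes on this array were Naca, which encodes the alpha subunit, Btf3, which encodes the beta subunit, and Btf3l4, which encodes a close relative of the beta subunit. They were taken as all probe sets that the platform annotation assigns to one of these symbols alone, which gave 8 of 45037 probe sets that are not array controls: 2 for Naca, 3 for Btf3 and 3 for Btf3l4. Heart ventricles of E11.5 mouse embryos were profiled on the Affymetrix mouse 430 2.0 array, a 1-colour design. All embryos were of strain 129SvEv. Of 6 arrays, 3 were hybridised with RNA from skNAC knockouts, made by targeted deletion (knockout 1, 26 and 66, by the numbers in their titles), and 3 with RNA from wild-type littermates (wild-type 13, 23 and 57). Per the labels the deletion is lethal by E12.5 with cardiac defects. The labels do not give the deleted exon, the litter of each embryo or whether RNA of several hearts was pooled, so p-values reflect only how far these samples spread, which may be technical.

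NAC is a heterodimer that sits at the exit of the ribosome tunnel, where it meets new proteins as they emerge, shields them and helps to sort them between the cytosol and the endoplasmic reticulum. The alpha and beta subunits bind each other through related domains. In heart and skeletal muscle, Naca also gives a long splice form, skNAC, in which a large muscle-specific exon is added to the alpha subunit. Deletion of that form therefore targets a transcript of Naca, not the complex as a whole. The RefSeq table lists 3 transcripts for Naca and gives skNAC as a synonym of the gene, and the platform annotation ties both Naca probe sets to the same RefSeq transcript. No source used here says whether either probe set reads the muscle-specific exon, so neither checks the deletion.

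No difference between genotypes passed the test for Naca, the targeted gene, and neither of its probe sets had a lower mean in knockout. On probe set 1448430_a_at the signals of knockout 1, 26 and 66 were 9047, 9034 and 8595, and those of wild-type 13, 23 and 57 were 8385, 8566 and 8286. The suffix _a_at marks a probe set shared by transcripts of the same gene. All 3 knockout arrays lay above all 3 wild-type arrays, but the closest pair, knockout 66 and wild-type 23, differed by less than the SD of either genotype. The means were 8892 ± 258 and 8412 ± 142 (SD, n = 3 arrays per genotype). On the scale of log2(signal + 16), the difference of knockout minus wild-type was 0.08 ± 0.08 (SE), with a 95% interval from -0.10 to 0.26. Expressed as a share of the wild-type signal, that interval runs from 93.4% to 120%. It holds for this probe set and this processing only. The interval of the other Naca probe set, 1416669_s_at, reaches down to 89.4%. The adjusted p of limma was 0.975. Quantile normalization, which makes the signal distributions of the arrays equal, turned the log2 difference to -0.01.

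The second Naca probe set, 1416669_s_at, carries the suffix _s_at, which marks probes that can match more than 1 gene. It read 9762, 8406 and 7406 in the knockout arrays and 8280, 8314 and 7504 in the wild-type arrays. Knockout 1 was the highest of all arrays and knockout 66 the lowest, so the wild-type values lay inside the knockout range. Its log2 difference was 0.08 ± 0.11 (SE), with an interval from -0.16 to 0.32 and a limma adjusted p of 0.979. Without knockout 1 it was -0.02. The probe sets of Naca thus differed in how far the arrays spread around almost the same difference: the coefficient of variation within the knockout arrays was 2.9% for the first and 13.9% for the second.

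**Figure D1:**
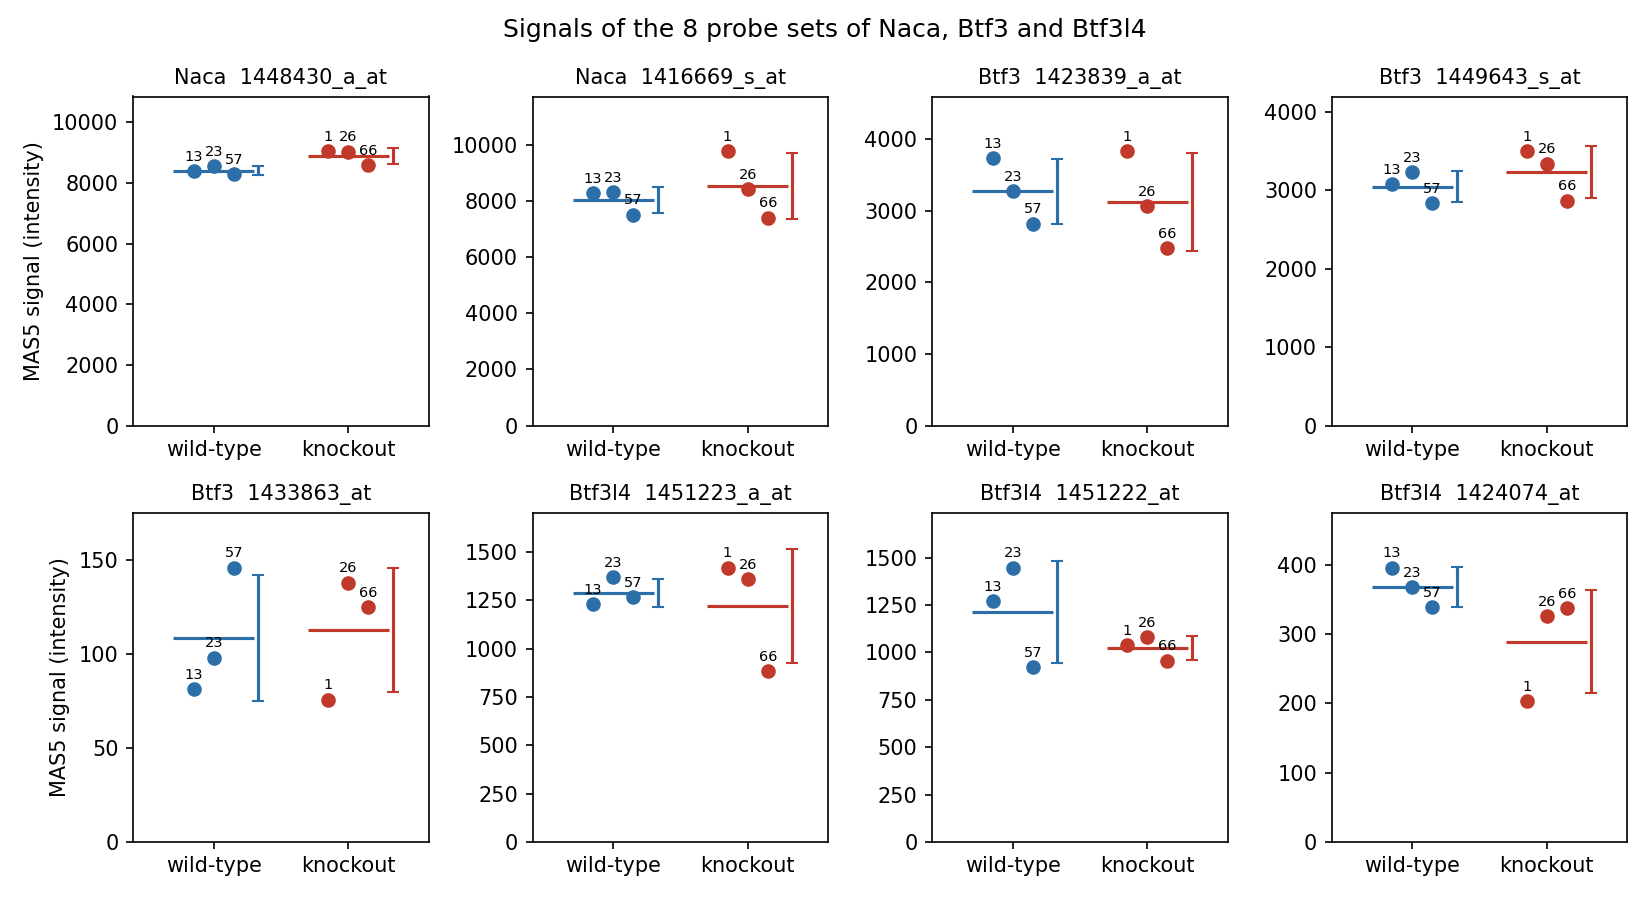
MAS5 signal (intensity, axes from 0) of each probe set of Naca, Btf3 and Btf3l4, with 1 point per array labelled by its number, a line at the mean of each genotype and a bar of 1 SD on each side. The 2 genotypes separate only for Naca 1448430_a_at, with knockout above wild-type, and Btf3l4 1424074_at, with knockout below wild-type.

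Btf3, the beta subunit and partner of Naca in the complex, gave no difference between genotypes that its spread could resolve. On probe set 1423839_a_at the knockout arrays, in the same order, gave 3830, 3062 and 2478, and the wild-type arrays 3731, 3270 and 2820. The wild-type values lay inside the wider range of the knockout values. The means were 3123 ± 678 and 3274 ± 455 (SD, n = 3), and the log2 difference was -0.08 ± 0.16 (SE), with an interval from -0.43 to 0.27 and a limma adjusted p of 0.983. The difference became 0.07 without knockout 66 and 0.02 without wild-type 13.

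Probe set 1449643_s_at of Btf3 was about as bright and pointed the other way. It read 3498, 3340 and 2869 in the knockout arrays and 3080, 3229 and 2838 in the wild-type arrays. The genotypes overlapped, with knockout 66 beside wild-type 57 at the low end. Its log2 difference was 0.08 ± 0.11 (SE), with an interval from -0.16 to 0.32, that is 89.8% to 125% of the wild-type signal. The difference was 0.02 without knockout 1, 0.03 without wild-type 57 and 0.17 without knockout 66. The third probe set, 1433863_at, was dim at 113 ± 33.1 in knockout and 108 ± 33.5 in wild-type, near the 95.2 above which probe sets were kept. Its interval, from -0.64 to 0.74, was the widest of the 8.

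Btf3l4, the paralog of Btf3, had a log2 difference below 0 on all 3 of its probe sets, and none passed the test. On probe set 1424074_at the knockout arrays gave 203, 326 and 337, and the wild-type arrays 396, 368 and 339. The genotypes did not overlap, with knockout lower, though knockout 66 and wild-type 57 were almost equal, and knockout 1 stood well below the rest. The means were 288 ± 74.6 and 368 ± 28.5 (SD, n = 3). The log2 difference was -0.36 ± 0.20 (SE), with an interval from -0.81 to 0.08. Limma gave an unadjusted p of 0.101 and an adjusted p of 0.975 over all probe sets. With each array left out in turn, the difference ran from -0.49 (without knockout 66) to -0.14 (without knockout 1).

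The 2 brighter probe sets of Btf3l4 overlapped between genotypes. Probe set 1451222_at read 1038, 1081 and 955 in the knockout arrays and 1270, 1447 and 922 in the wild-type arrays. Wild-type 57 was the lowest of the 6 arrays and the other 2 wild-type arrays were the highest. The log2 difference was -0.22 ± 0.16 (SE), with an interval from -0.57 to 0.13, and it was -0.40 without wild-type 57 and -0.08 without wild-type 23. Probe set 1451223_a_at read 1420, 1359 and 884 in the knockout arrays and 1232, 1370 and 1266 in the wild-type arrays. Its low value came from knockout 66 alone. Its log2 difference was -0.11 ± 0.17 (SE) and turned to 0.11 without knockout 66.

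**Figure D2:**
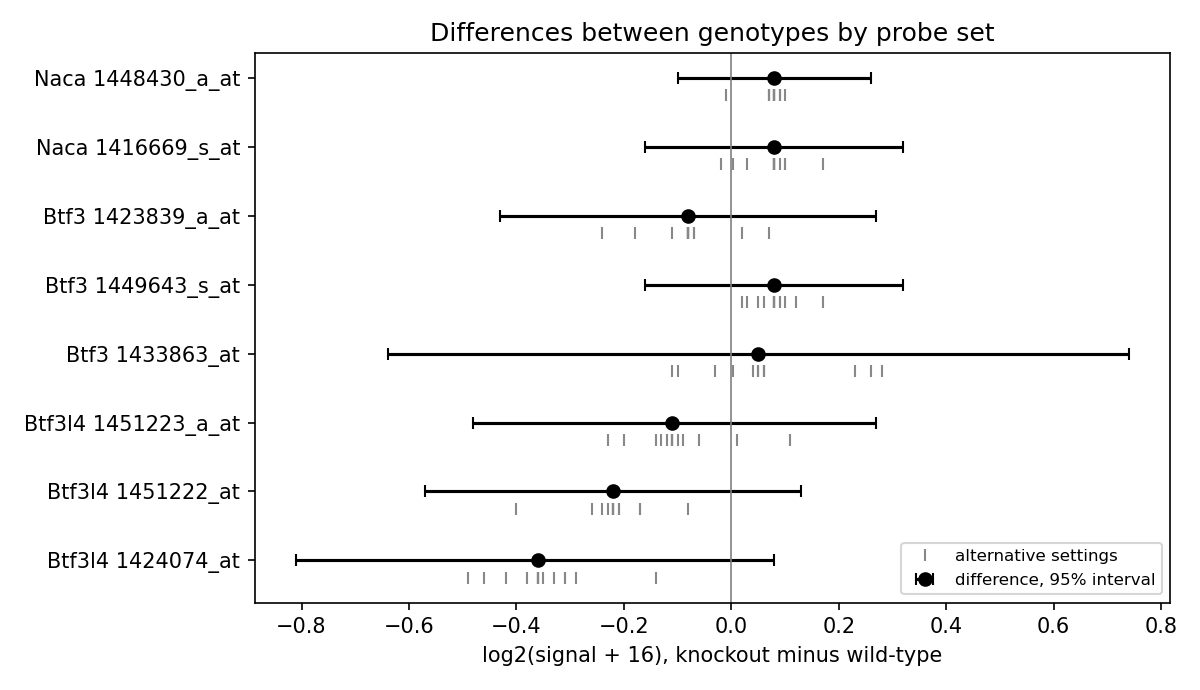
Difference of log2(signal + 16), knockout minus wild-type, for each of the 8 probe sets, with points at the difference, bars for its 95% interval from limma and grey ticks for the value under each alternative setting. Each interval spans 0, from the narrowest at -0.10 to 0.26 (Naca 1448430_a_at) to the widest at -0.64 to 0.74 (Btf3 1433863_at).

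Of the 8 probe sets, 0 passed an adjusted p of 0.05 in limma and 0 had an unadjusted p under 0.05. Among all 22518 kept probe sets 0 passed, a background of 0%, and 4.81% had an unadjusted p under 0.05. The differences were above 0 in 4 of the 8 and below 0 in 4, with a median of -0.02, beside -0.0094 over all kept probe sets. Arrays of the genotypes did not overlap in 2 of the 8, 1 in each direction, against 10.5% of all kept probe sets (4.97% higher and 5.55% lower in knockout). For each gene taken by its brightest probe set, 0 of 3 passed among 11661 genes. The 3' to 5' ratio of signals from array controls, a sign of RNA length, was higher in all knockout arrays, at 2.49 to 2.57 against 2.05 to 2.24 for actin and 1.28 to 1.45 against 1.12 to 1.2 for Gapdh. Its part in these values was not tested.

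The spread between arrays differed widely among the probe sets, also within a gene. Within genotypes, Naca 1448430_a_at had an SD of 0.034 on the log2 scale, and 1.2% of the 500 kept probe sets nearest to it in signal had a smaller one. Naca 1416669_s_at, of nearly the same signal, had an SD of 0.15, larger than 75.8% of its 500 nearest. For Btf3 1423839_a_at the SD was 0.26, larger than 91.6% of its nearest, while Btf3 1449643_s_at had 0.12, larger than 40.6%. The 3 probe sets of Btf3l4 lay at 0.24 to 0.28.

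The members' values also varied by array in a way that crossed the genotypes. Knockout 1 held the highest value in 5 of the 8 probe sets but the lowest in 2. Those were Btf3l4 1424074_at and the dim Btf3 1433863_at, with deviations of -0.63 and -0.43 from their own means. Knockout 66 and wild-type 57 each held the lowest value in 3, and wild-type 57 held the highest in 1. The median deviation of the 8 probe sets from their own means was 0.11 in knockout 1, -0.14 in knockout 66 and -0.098 in wild-type 57, and it lay between -0.0018 and 0.046 in the other 3 arrays. Knockout 1, wild-type 57 and knockout 66 are also the extremes of the array medians, at 92, 111 and 114 with a common trimmed mean of 250. Wild-type 13 had the next lowest array median, 95, and a median deviation of -0.0018. The part of the array medians in these deviations was not tested.

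**Figure D3:**
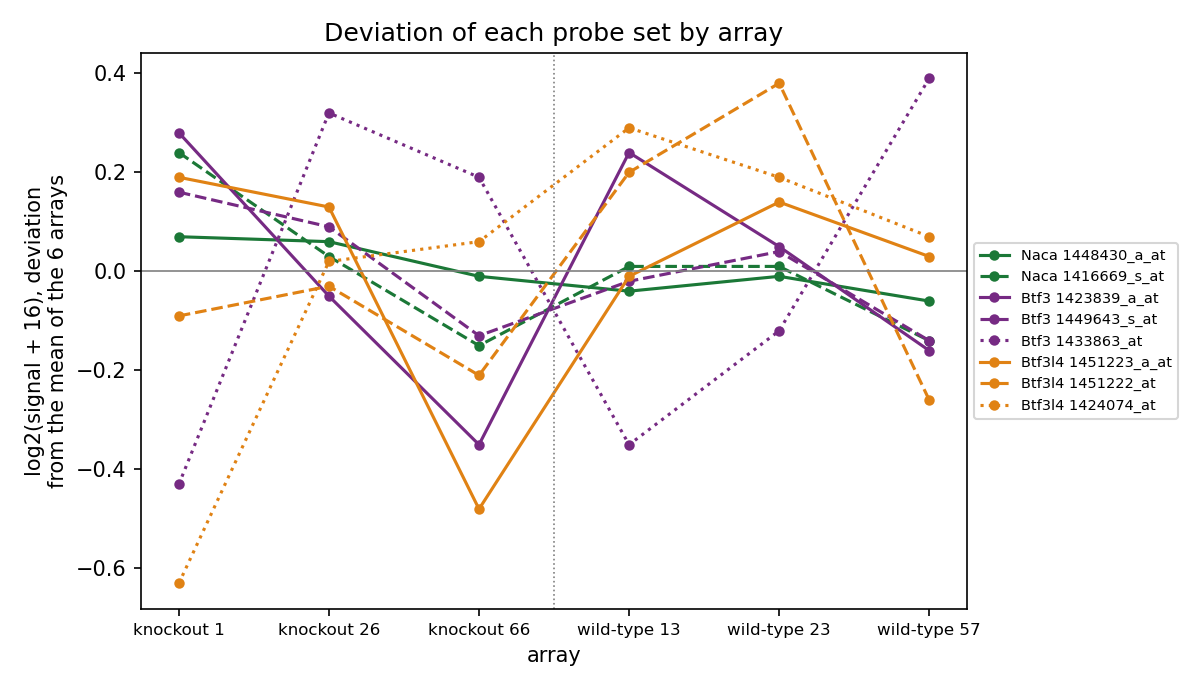
Deviation of log2(signal + 16) from the mean of the 6 arrays, with 1 line per probe set coloured by gene and the arrays on the horizontal axis, split by genotype at the dotted line. Naca 1448430_a_at stays within -0.06 to 0.07. Btf3l4 1424074_at runs from -0.63 in knockout 1 to 0.29 in wild-type 13, and the dim Btf3 1433863_at from -0.43 in knockout 1 to 0.39 in wild-type 57.

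Probe sets of the same gene followed each other only in part. Over the 6 arrays, Pearson's r between the Naca probe sets was 0.70 (exact permutation p = 0.0875, or 0.259 adjusted over the 7 pairs within the 3 genes) and Spearman's rho was 0.66 (exact permutation p = 0.175, adjusted 0.408). The r fell to 0.08 without the 2 arrays farthest from the median, knockout 1 and knockout 26, so the relation rests on those. The 2 bright Btf3 probe sets gave an r of 0.72 (exact permutation p = 0.111, adjusted 0.259) and a rho of 0.71 (0.136, adjusted 0.408), with an r of 0.31 without the 2 farthest arrays. The dim Btf3 1433863_at ran against Btf3 1423839_a_at, at an r of -0.84 (exact permutation p = 0.0444, adjusted 0.259) and a rho of -0.83 (0.0583, adjusted 0.408), and -0.95 without the 2 farthest arrays. Against Btf3 1449643_s_at the dim probe set gave an r of -0.55 (exact permutation p = 0.249, adjusted 0.435) and a rho of -0.60 (0.242, adjusted 0.423), and the r was 0.11 without the 2 farthest arrays. None of the 7 pairs passed the adjustment. Within Btf3l4, r lay between -0.31 and 0.40.

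Because NAC works as a dimer, the balance of its subunits was compared within each array, a measure that a scale factor common to an array hardly touches. Each ratio uses the brightest probe set of each gene, and its level carries the affinities of the probes, so only its change between genotypes can be read. The log2 ratio of Naca to Btf3 was 1.24, 1.56 and 1.79 in the knockout arrays and 1.17, 1.39 and 1.55 in the wild-type arrays. The genotypes overlapped, and the mean was 0.16 higher in knockout (exact permutation p = 0.40 over 20 assignments, two-sided, or 0.90 adjusted over the 3 ratios; the smallest p this design allows is 0.1). It was 0.03 without knockout 66, 0.06 without wild-type 13, 0.25 without wild-type 57 and 0.31 without knockout 1. The Btf3 probe set used, 1423839_a_at, had a log2 difference of -0.08, but the other bright one, 1449643_s_at, had 0.08. No ratio was taken with the latter, so the 0.16 holds for 1 choice of probe set.

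The log2 ratio of Naca to Btf3l4 was 2.66, 2.72 and 3.26 in the knockout arrays and 2.75, 2.63 and 2.70 in the wild-type arrays. Knockout 66 alone stood apart. The difference between genotypes was 0.19 (exact permutation p = 0.60, adjusted 0.90) and became -0.0038 without that array. The ratio of Btf3 to its paralog Btf3l4 differed by 0.03 (exact permutation p = 0.90, adjusted 0.90), with SDs of 0.17 in knockout and 0.23 in wild-type.

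**Figure D4:**
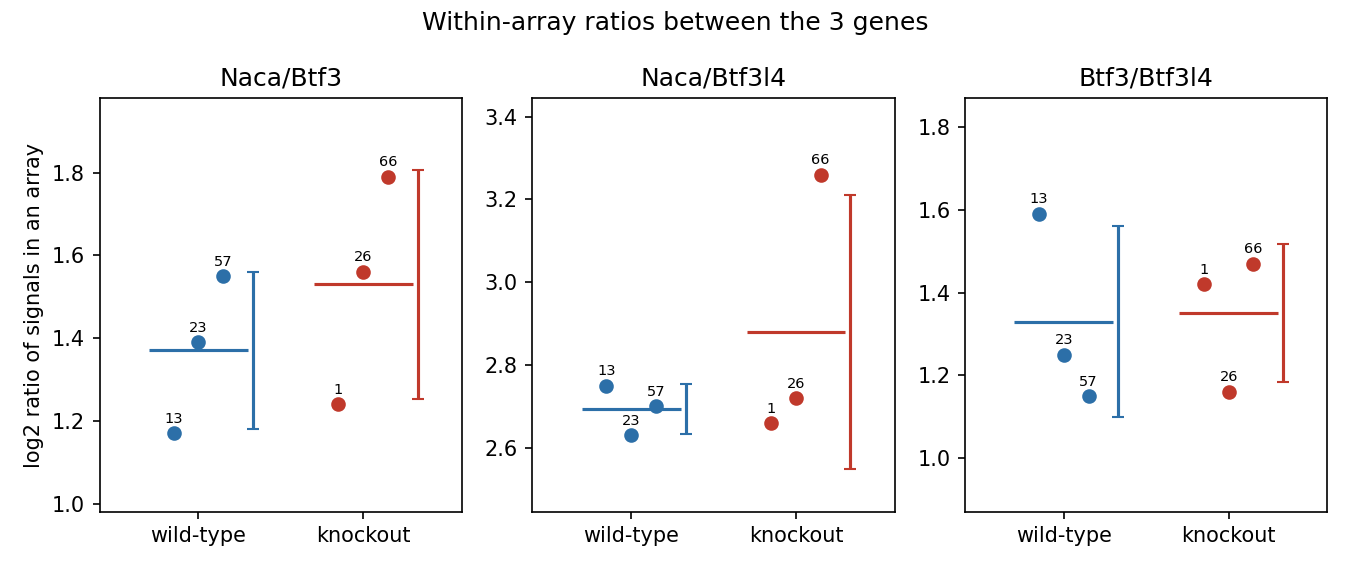
Log2 ratio of the signals of 2 genes within each array, by genotype, with 1 point per array labelled by its number, lines at the means and bars of 1 SD on each side (each axis spans 1 log2 unit and does not start at 0). The genotypes overlap in all 3 ratios, and knockout 66 is the highest array for Naca/Btf3, at 1.79, and for Naca/Btf3l4, at 3.26.

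Other factors that act on nascent chains, counted together with the skNAC partner Smyd1, gave no call either. Of 48 genes on 7 lists, 42 had a kept probe set, and 0 passed in limma over all genes, where the background was 0 of 11661 (0%). Differences were above 0 in 22 and below 0 in 20, with a median of 0.05 beside 0.0023 over all genes. Arrays of the genotypes did not overlap in 4 of the 42, against 10.9% of all genes. An unadjusted p under 0.05 was reached by 2 of the 42, against 5.01% of all genes.

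Nacad, a paralog of Naca that shares its NAC domain, was dim. Its brighter probe set read 106 ± 45.5 in knockout and 130 ± 36.2 in wild-type (log2 difference -0.29 ± 0.32, SE). Its other, below the level at which probe sets were kept, read 58.3 and 42.3. There the sign was opposite, with all knockout arrays above all wild-type arrays (log2 difference 0.35 ± 0.36, SE, in the fit without a filter). Smyd1, the muscle methyltransferase that binds skNAC, stood at a log2 difference of -0.11 ± 0.14 on its brightest probe set. Its 4 other kept probe sets gave -0.41, -0.20, 0.00 and 0.18.

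Chaperones listed for new chains at the ribosome, not all of which dock on it, were measured in 4 of 5 cases. Of these, 3 were above 0 and 1 below (Hspa4, at -0.07), with a median log2 difference of 0.14. That median was 0.035 without wild-type 57 and 0.039 when all probe sets of a gene were averaged. Hspa8, the constitutive cytosolic Hsp70, read 10484 ± 972 in knockout and 9227 ± 1121 in wild-type (log2 difference 0.19 ± 0.11, SE), and 1 of its 3 other kept probe sets had the opposite sign. Dnajc2 and Hspa14, which form the mammalian ribosome-associated complex, gave 0.17 ± 0.13 and 0.10 ± 0.15, but 1 of the 2 other kept probe sets of Dnajc2 was at -0.03 and the other of Hspa14 at -0.59.

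Enzymes that trim or modify the N-terminus of the emerging chain were measured in 13 of 14 cases, with 8 above 0 and 5 below. The median log2 difference was 0.13, but 0.0022 when all probe sets of a gene were averaged. For Metap2, a methionine aminopeptidase, the knockout arrays gave 3957, 3724 and 4289 and the wild-type arrays 3390, 3538 and 3090. The knockout arrays lay above the wild-type arrays, with a log2 difference of 0.26 ± 0.10 (SE) and a limma adjusted p of 0.959, while both other kept probe sets of Metap2 were below 0, at -0.01 and -0.10. Naa50, an N-terminal acetyltransferase, gave 0.27 ± 0.13, and Naa38, an auxiliary subunit of another such enzyme, -0.18 ± 0.12.

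The signal recognition particle, which competes with NAC for ribosomes and takes secretory chains to the endoplasmic reticulum, had, with its receptor, 7 of 10 listed genes measured, 4 above 0 and 3 below, with a median log2 difference of 0.05. Srp14 read 5674, 5781 and 6992 in the knockout arrays and 5289, 4960 and 5187 in the wild-type arrays. The arrays did not overlap, and the log2 difference was 0.25 ± 0.10 (SE; limma adjusted p = 0.959), but this probe set ends in _x_at, a mark of probes that can match other sequences, and the other 3 kept probe sets of Srp14 gave 0.03 to 0.11. Srp72 gave 0.13 ± 0.10 and Srp9 -0.19 ± 0.17, with the other kept probe set of Srp9 at 0.11. The list's median was -0.02 without wild-type 57.

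Genes of the translocon, the channel that receives those chains, had 10 of 11 measured, 4 above 0 and 6 below, with a median log2 difference of -0.02, which turned to 0.06 without knockout 66, 0.036 without wild-type 13 and 0.05 with array quality weights. Ssr1, a subunit of the translocon-associated complex, gave 0.13 ± 0.10 (SE), Sec63, a partner of the channel, -0.24 ± 0.23 and Ssr2 -0.15 ± 0.15. The other 3 kept probe sets of Sec63 lay between -0.32 and 0.27. All 6 subunits of prefoldin, which passes new actin and tubulin chains to the chaperonin, were measured, with 3 on each side of 0. Pfdn5 gave -0.26 ± 0.14, with its other 3 kept probe sets at -0.22, -0.16 and 0.76, Vbp1 0.20 ± 0.13 and Pfdn4 0.14 ± 0.13.

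**Figure D5:**
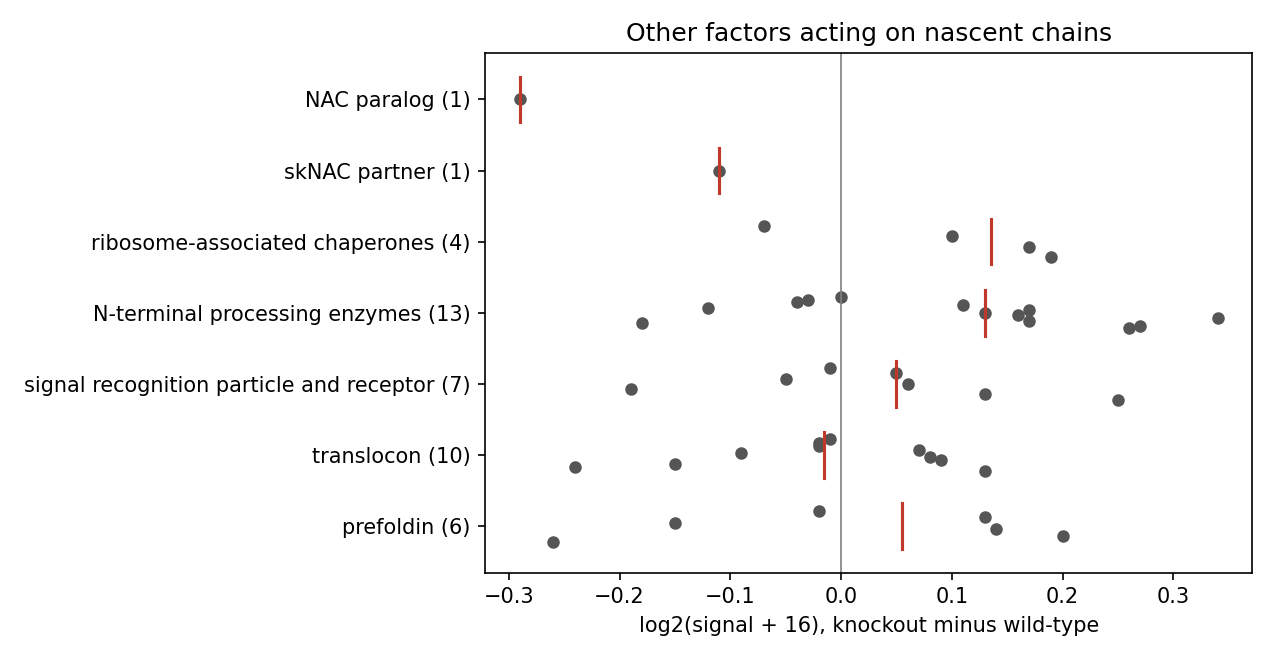
Difference of log2(signal + 16), knockout minus wild-type, for each measured gene of the 7 lists (number measured in brackets), with 1 point per gene and a red line at the list's median. All 42 genes lie between -0.29 and 0.34, on both sides of 0. The list of the skNAC partner holds Smyd1 alone, which is not a factor of nascent chains.

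Genes whose signals followed the members most closely over the 6 arrays were found by the root mean square distance between log2 values centred on their own mean, among 11134 other named genes. For Naca 1448430_a_at these were Nemf, a factor of ribosome quality control (0.018), Hadh, an enzyme of fatty acid oxidation (0.02), and the non-coding RNA gene Snhg4 (0.022). Naca itself varied by only 0.049 around its mean, and 1236 genes lay within 0.1 of it, so closeness here says mostly that both were steady. For Btf3 1423839_a_at the nearest were Lamtor5, a subunit of the lysosomal Ragulator complex (0.031), Ccdc34 (0.036) and the mitochondrial ribosomal gene Mrpl39 (0.045). Lamtor5 gave 2479, 1950 and 1508 in the knockout arrays and 2417, 2087 and 1757 in the wild-type arrays, the same descent in each genotype as Btf3. For Btf3l4 1451223_a_at they were the deaminase gene Dctd (0.015), Ubxn2a (0.042) and the chromatin gene Smchd1 (0.044), each lowest in knockout 66. With 6 arrays and this many genes, close matches arise in number, and 172 and 138 genes lay within 0.1 of Btf3 and of Btf3l4.

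The tissue label was checked against marker genes. All 8 markers of ventricular cardiomyocytes were above the level at which probe sets were kept, with summed signals of 78333 to 90886 in knockout and 74446 to 80423 in wild-type. All 5 markers each of endothelium, epicardium and mesenchyme, 3 of 4 atrial markers and 4 of 5 blood markers on the array were above it too, so transcripts of several cell types were measured. Of the liver markers, Alb, Afp and Ttr were below it and Apoa2 was above it, at 97 in knockout and 158 in wild-type. Of 3 neural markers on the array Nefl was above it, and of 4 skeletal muscle markers Myod1 and Ckm were above it. The 5 blood markers on the array had summed signals of 54383 to 70293 in knockout and 49096 to 58070 in wild-type. The part of blood in the members' values was not tested. NAC genes are expressed in most cells, and in RNA of a whole ventricle fewer cells of a type and less RNA per cell cannot be told apart, nor can a loss of skNAC in muscle cells be told from the Naca transcripts of all other cells.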

How the data were processed

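The authors deposited intensities of probe sets on a linear scale, 1 array per sample; the submitters' processing notes name GCOS and MAS5, and no source used here gives versions or settings. Each array had a 2% trimmed mean of 250. Intensities were transformed as log2(intensity + 16), so changes of dim genes are understated. Probe sets were kept above the median, 95.2, of the mean taken on that scale (22518, with all 8 members) and fitted in limma 3.58.1 under R 4.3.3 (lmFit, eBayes with a trend, two-sided, Benjamini-Hochberg over all kept, calls at 0.05). For each gene, the brightest kept probe set stood for it. Single values were compared by exact permutation. Code was tested on simulated data. Members, lists and tests were chosen with earlier results of these data known. Named genes were all members, the 3 nearest genes of each and up to 3 per list by smallest p. Alternatives were pseudocounts of 1 and 64, no filter or the 70th percentile, quantile normalization, median centring, eBayes without a trend or robust, array quality weights, averaged probe sets, and each array left out. The values name no genome build. The number of arrays limits the precision. Figures used Matplotlib 3.10.9 under Python 3.11.15.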

Additional observations from a re-analysis of the deposited data

How the results depend on the processing

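None of the 8 probe sets of Naca, Btf3 and Btf3l4 was called under any of the 15 alternative fits over probe sets, and the lowest adjusted p in limma was 0.515, for Btf3l4 1424074_at with array quality weights. Differences kept their direction in 69 of 71 fits that left out no array and in 41 of 48 that left out 1. Quantile normalization turned Naca 1448430_a_at to -0.01 (-0.015 in the fit over genes), and array quality weights turned Btf3l4 1451223_a_at to 0.01 (0.017 over genes). Averaging the probe sets of a gene turned Btf3 to 0.017 and put Btf3l4 at -0.23. With each array left out in turn, the log2 differences ran from 0.07 to 0.10 for Naca 1448430_a_at and from -0.02 to 0.17 for Naca 1416669_s_at. For Btf3 they ran from -0.24 to 0.07 (1423839_a_at), from 0.02 to 0.17 (1449643_s_at) and from -0.11 to 0.28 (1433863_at). For Btf3l4 they ran from -0.23 to 0.11 (1451223_a_at), from -0.40 to -0.08 (1451222_at) and from -0.49 to -0.14 (1424074_at). Over genes they ran from 0.07 to 0.10 for Naca, from -0.24 to 0.07 for Btf3 and from -0.23 to 0.11 for Btf3l4. The ratio differences ran from -0.0038 to 0.30 for Naca to Btf3l4, from -0.06 to 0.16 for Btf3 to Btf3l4 and from 0.03 to 0.31 for Naca to Btf3. The probe set that stood for each gene in the ratios was not varied. List medians ran from 0.07 to 0.21 for N-terminal processing enzymes, which moved to 0.0022 when probe sets of a gene were averaged, and from -0.02 (without wild-type 57) to 0.11 for the signal recognition particle. Over all probe sets 0 were called, but 6 with array quality weights, and from 0 to 2 with an array left out (2 without knockout 1). The cause of these changes was not tested. No paired analysis was possible because the labels do not give the litter of each embryo and the genotypes share no replicate number. Signal over background limits Btf3 1433863_at most.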
